A study of Sus scrofa with 13 samples.

Results

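The AMPK subunit genes and STK11 were followed across muscle samples of 2 pig breeds that differed in loin weight. The genes were chosen by symbol: the γ subunit genes PRKAG1, PRKAG2 and PRKAG3, the α subunit genes PRKAA1 and PRKAA2, the β subunit genes PRKAB1 and PRKAB2, and STK11. All 8 symbols were found in the count data of both breeds, as 9 of 25322 gene identifiers, because PRKAA1 had 2 identifiers. RNA-seq was done on longissimus lumborum, the loin muscle, of 13 female pigs aged 6 months. The groups were 3 Hampshire pigs with low loin weight, 3 Hampshire with high, 3 Pietrain with low and 4 Pietrain with high, here called Hampshire low, Hampshire high, Pietrain low and Pietrain high. All pigs were kept and fed alike, each library came from 1 pig, and pigs entered a group by the loin weight measured at dissection. The PRKAG3 genotype of the pigs was not given in the sources used here. Counts were deposited in a separate file for each breed, so breed and any difference in how the breeds' libraries were made cannot be told apart.

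AMP-activated protein kinase (AMPK) is the energy sensor of the cell. It is a complex of a catalytic α subunit, a scaffolding β subunit, which binds glycogen, and a γ subunit, which binds AMP, ADP and ATP. LKB1, encoded by STK11, is the upstream kinase that phosphorylates the α subunit when energy is short. In skeletal muscle the active kinase promotes glucose uptake and fatty acid oxidation and restrains glycogen and protein synthesis. PRKAG3 encodes the γ subunit found mainly in glycolytic skeletal muscle, and it is the RN gene of Hampshire pigs, in which a mutation raises muscle glycogen and lowers the pH of the meat.

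The genes of the complex lie apart in the genome. On Sscrofa10.2 the authors' coordinates place PRKAG1 (ENSSSCG00000000185) at chr5:15443377-15522457, PRKAG2 (ENSSSCG00000016432) at chr18:6107243-6143620, PRKAA2 (ENSSSCG00000003837) at chr6:143547628-143573947, and PRKAB1 (ENSSSCG00000009840) at chr14:35147993-35163200. PRKAB2 (ENSSSCG00000006703) lies at chr4:110207628-110219875 and STK11 (ENSSSCG00000013429) at chr2:77814539-77821746. PRKAA1 was annotated at 2 places, chr16:26857519-26868105 (ENSSSCG00000024598) and on the unplaced scaffold GL896571.2 from 118496 to 134999 (ENSSSCG00000016858). Reads of 1 gene may be split between these identifiers, so both are given as uncertain. PRKAG3 (ENSSSCG00000016200) had counts in every pig but no coordinates in the authors' tables.

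Total counts per pig ranged from 11312755 to 20134612. Levels are CPM, the counts scaled to library size with TMM factors, and are compared between pigs, not between genes, because transcript lengths were not used here. Differentially expressed genes (DEGs) are those that passed edgeR's quasi-likelihood test across all genes at an adjusted p-value (Benjamini-Hochberg) below 0.05 and changed by 1.2-fold or more. Skeletal muscle actin, creatine kinase and the other muscle fibre marker measured were abundant in every pig, with a summed level of 45587 to 205706 CPM. On the first principal component (49.8% of the variance) the Hampshire high pigs lay between -82.3 and -58.7, the Hampshire low pigs between -20.8 and -3.99, and the Pietrain pigs between 4.94 and 55.1. The closest Pietrain pig to the Hampshire pigs was Pietrain high pig 7.

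**Figure D1:**
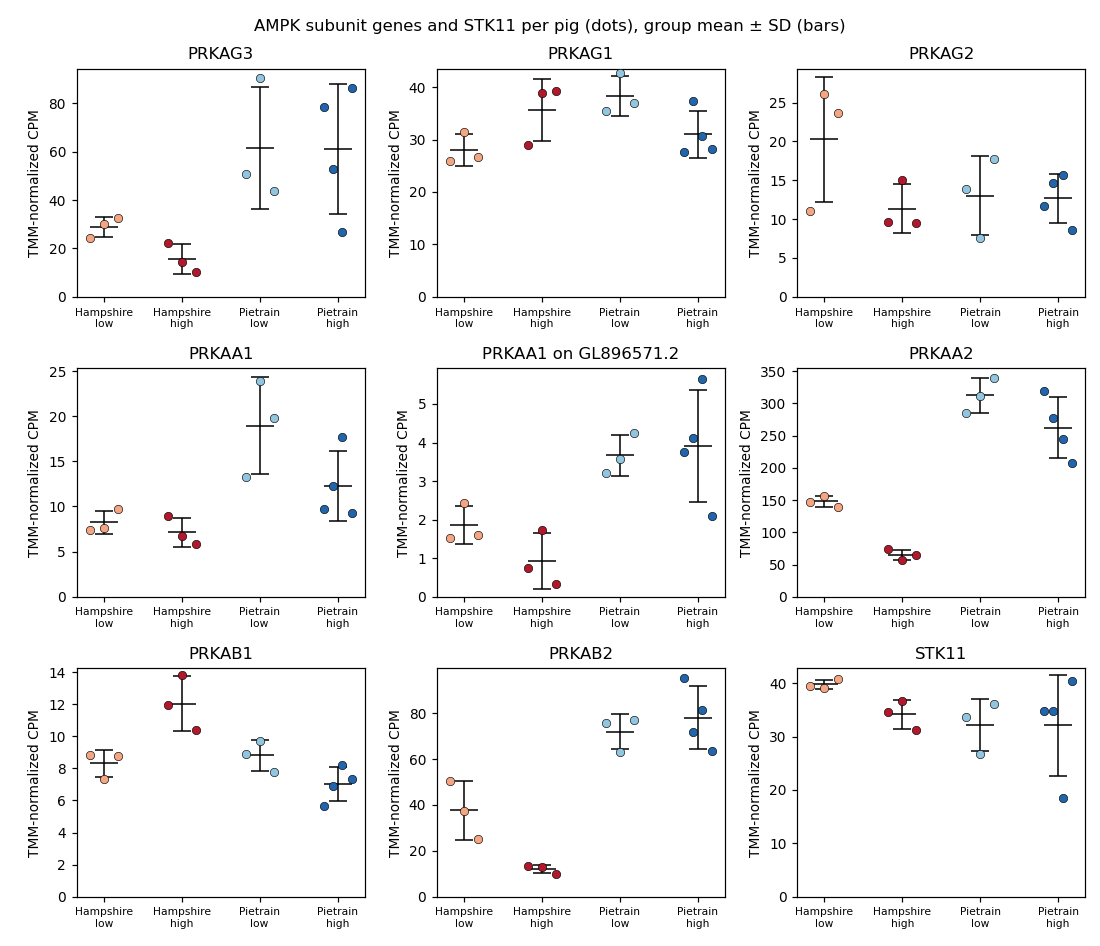
TMM-normalized CPM of each AMPK subunit gene and STK11, with 1 dot per pig and bars for the group mean ± SD, in 4 groups of 3, 3, 3 and 4 pigs. PRKAA2 and PRKAB2 are lowest in Hampshire high, intermediate in Hampshire low and highest in both Pietrain groups, while PRKAB1 is highest in Hampshire high.

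In Hampshire, 3 of the 9 identifiers were DEGs lower in the heavy-loin group and none was higher. They were the muscle γ subunit gene PRKAG3, the α subunit gene PRKAA2 and the β subunit gene PRKAB2. Over all 12228 genes tested, 14.6% were DEGs lower and 12.0% DEGs higher in the high group. The median log2 fold change of the 9 identifiers was -0.84, against 0.03 for all genes tested. For 5 of the 9 identifiers no high pig fell within the range of the low pigs, as was the case for 45.9% of all genes tested.

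PRKAB2, which encodes the β2 subunit common in muscle, had the largest change among them. Its level was 50.5, 37.2 and 25.1 CPM in Hampshire low pigs 1, 2 and 3, and 13.3, 12.9 and 9.98 CPM in Hampshire high pigs 8, 9 and 10. Every low pig lay above every high pig, and the low pigs spread more widely. PRKAB2 was thus 3.14-fold lower in the high group (log2 fold change -1.65 ± 0.27 SE, adjusted p = 0.00488).

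PRKAA2 encodes the α2 catalytic subunit, the main one in muscle fibres. Its level was 148, 156 and 140 CPM in Hampshire low pigs 1, 2 and 3 and 73.3, 57.4 and 64.9 CPM in Hampshire high pigs 8, 9 and 10. The 2 groups were narrow and well separated. The level was 2.27-fold lower in the high group (log2 fold change -1.18 ± 0.16 SE, adjusted p = 0.00276). PRKAA2 and PRKAB2 stayed DEGs with each Hampshire pig left out in turn, with adjusted p-values of at most 0.0152 for PRKAA2 and 0.0233 for PRKAB2 (edgeR).

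PRKAG3 showed a smaller difference that rested on fewer pigs. Its level was 24.2, 29.9 and 32.6 CPM in Hampshire low pigs 1, 2 and 3 and 22.5, 14.5 and 10.2 CPM in Hampshire high pigs 8, 9 and 10. The groups did not overlap, but the highest high pig and the lowest low pig were close. The level was 1.85-fold lower in the high group (log2 fold change -0.89 ± 0.27 SE, adjusted p = 0.0390, edgeR). The call was lost without Hampshire low pig 2 (adjusted p = 0.0808), low pig 3 (0.129), high pig 9 (0.100) or high pig 10 (0.107), and in 1 fit over all 13 pigs (0.135), while the log2 fold change stayed between -1.27 and -0.66 without any 1 pig.

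Of the 9 identifiers, PRKAB1 and PRKAG1 had log2 fold changes above 0 and the other 7 below 0. PRKAB1, which encodes the β1 subunit, had 8.82, 7.34 and 8.76 CPM in Hampshire low pigs 1, 2 and 3 and 11.9, 13.8 and 10.4 CPM in Hampshire high pigs 8, 9 and 10. The high pigs lay above the low pigs without overlap, yet the difference did not pass the test (log2 fold change 0.53 ± 0.19 SE, adjusted p = 0.0679, edgeR). PRKAG1, which encodes the widely expressed γ1 subunit, had 26.0 to 31.4 CPM in the low and 28.9 to 39.3 CPM in the high group (log2 fold change 0.35 ± 0.18 SE, adjusted p = 0.178, edgeR). With a correction for gene length it was a DEG (log2 fold change 0.71, adjusted p = 0.0252). PRKAG2, which encodes γ2, had 11.0, 26.1 and 23.6 CPM in the low group and 9.60, 15.0 and 9.47 CPM in the high group. The groups overlapped because low pig 1 lay below high pig 9 (log2 fold change -0.84 ± 0.32 SE, adjusted p = 0.0832, edgeR). Without low pig 1 PRKAG2 was a DEG (log2 fold change -1.18, adjusted p = 0.0174). DESeq2 also called it with all pigs (adjusted p = 0.0449).

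PRKAA1, which encodes the α1 subunit, had 5.82 to 9.74 CPM at its chromosome 16 identifier in the 6 Hampshire pigs and did not differ detectably (log2 fold change -0.21 ± 0.23 SE, adjusted p = 0.513, edgeR). Its scaffold identifier had only 5 to 50 counts per Hampshire pig (log2 fold change -1.06 ± 0.54 SE, adjusted p = 0.171, edgeR), and it was a DEG without high pig 9 (log2 fold change -1.84, adjusted p = 0.0456). The scaffold identifier held between 5.21% and 28.0% of the PRKAA1 counts of a pig. With both identifiers summed, the log2 fold change was -0.33 ± 0.21 SE (adjusted p = 0.275). STK11 had 39.1 to 40.8 CPM in the low and 31.3 to 36.6 CPM in the high group. The groups did not overlap, but the difference was small and did not pass the test (log2 fold change -0.22 ± 0.14 SE, adjusted p = 0.262, edgeR). With the gene length correction it did (log2 fold change -0.49, adjusted p = 0.0326).

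In Pietrain, 0 of the 9 identifiers were DEGs, as were 0% of all 12065 genes tested (398 had an unadjusted p-value below 0.05, and DESeq2 called 1 gene). The paper, by contrast, reports many DEGs between its Pietrain groups, with DESeq2 at the same thresholds. It lists fewer pigs with high loin weight, and the reason for the disagreement was not tested. All 9 identifiers overlapped between the groups, and 4.59% of all genes tested did not. PRKAA2 had 286, 312 and 340 CPM in Pietrain low pigs 3, 5 and 8 and 319, 277, 245 and 207 CPM in Pietrain high pigs 1, 2, 6 and 7 (log2 fold change -0.22 ± 0.19 SE). PRKAB2 had 75.8, 63.1 and 76.9 CPM in the low pigs and 95.2, 71.9, 81.5 and 63.6 CPM in the high pigs (log2 fold change 0.15 ± 0.19 SE). For both genes the high pigs overlapped the low pigs.

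PRKAG3 varied far more among the Pietrain pigs. It had 50.7, 90.4 and 43.8 CPM in Pietrain low pigs 3, 5 and 8 and 78.7, 52.8, 27.0 and 86.2 CPM in Pietrain high pigs 1, 2, 6 and 7. Both groups thus held pigs near the top of the range, and the lowest level was in high pig 6 (log2 fold change 0.04 ± 0.38 SE, with its sign changing when single pigs were left out). The largest Pietrain log2 fold change among the 9 identifiers was that of PRKAA1 on chromosome 16, at -0.60 ± 0.28 SE (adjusted p = 0.939, edgeR). PRKAA1 had 13.2, 23.9 and 19.8 CPM in the low pigs and 9.70, 12.2, 17.7 and 9.30 CPM in the high pigs. PRKAB1 had 7.80 to 9.73 CPM in the low and 5.64 to 8.18 CPM in the high group (log2 fold change -0.29 ± 0.23 SE), the sign opposite to that in Hampshire. PRKAG1 had 35.5 to 42.7 CPM in the low and 27.7 to 37.4 CPM in the high group (-0.27 ± 0.18 SE). PRKAG2 had 7.52 to 17.7 CPM and 8.65 to 15.6 CPM (-0.02 ± 0.32 SE), and STK11 had 26.8 to 36.1 CPM and 18.5 to 40.4 CPM (0.03 ± 0.27 SE), each in the low and the high group in that order. For these genes no difference between the Pietrain groups was detectable with 3 and 4 pigs.

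**Figure D2:**
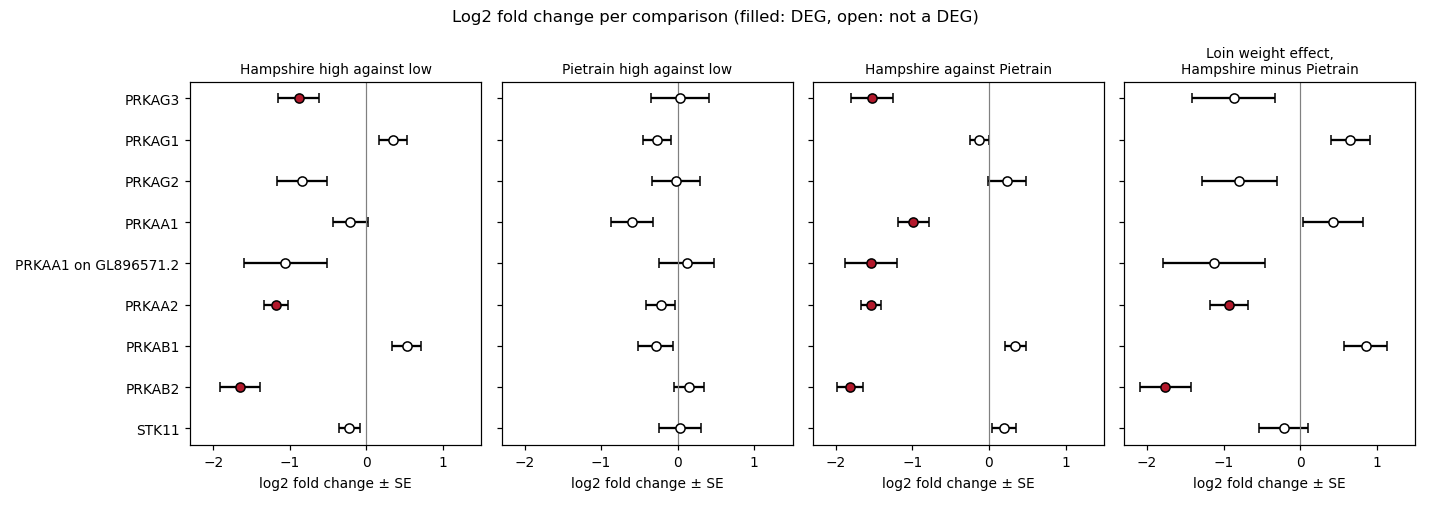
Log2 fold change ± SE of each gene in the 4 comparisons, with filled points for DEGs and open points for the others. PRKAA2 and PRKAB2 are filled and below 0 in Hampshire, between the breeds and for the difference in effect, and no point is filled in Pietrain.

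The effect of loin weight was then compared between the breeds in 1 fit over all 13 pigs. It differed for PRKAB2 and PRKAA2, 2 of the 9 identifiers, compared with 5.90% of the 12831 genes tested. For PRKAB2 the effect was lower in Hampshire than in Pietrain by a log2 difference of -1.76 ± 0.33 SE (adjusted p = 0.00970, edgeR), which passed the test with each pig left out in turn. For PRKAA2 the log2 difference was -0.93 ± 0.25 SE (adjusted p = 0.0412, edgeR), but the call was lost in 10 of the 13 fits that left out 1 pig, with adjusted p-values up to 0.0759, without the filter on low counts (0.0501) and with the length correction that added RefSeq lengths (0.0559). For PRKAG3 the log2 difference was -0.87 ± 0.54 SE (adjusted p = 0.374), so its loin weight effect was not shown to differ between breeds. PRKAB1 and PRKAG1 had differences of the other sign, 0.86 ± 0.28 SE (adjusted p = 0.0878, edgeR) and 0.65 ± 0.25 SE (adjusted p = 0.140). PRKAG1 passed the test with the gene length correction (log2 difference 0.96, adjusted p = 0.0438).

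Ratios of the counts of paired subunit isoforms within each pig do not depend on library scaling. In Hampshire low the ratio of PRKAB2 to PRKAB1 counts ranged from 2.86 to 5.73, and in Hampshire high it ranged from 0.934 to 1.11. In Pietrain low it ranged from 6.48 to 9.86 and in Pietrain high from 8.65 to 16.9. The mean log2 ratio was lower by -2.13 in Hampshire high than in Hampshire low and higher by 0.44 in Pietrain high than in Pietrain low.

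The ratio of PRKAA2 to PRKAA1, counted at its chromosome 16 identifier only, ranged from 14.3 to 20.5 in Hampshire low and from 8.22 to 11.2 in Hampshire high. In the Pietrain groups it ranged from 13.0 to 21.6 (low) and from 13.8 to 32.9 (high), so that Hampshire low lay within the Pietrain range. The ratio of PRKAG3 to PRKAG1 ranged from 0.934 to 1.22 in Hampshire low and from 0.261 to 0.778 in Hampshire high. It ranged from 1.18 to 2.12 in Pietrain low and from 0.879 to 3.06 in Pietrain high. All 3 ratios were separated without overlap between the Hampshire groups and overlapped between the Pietrain groups. Of single genes tested, 45.9% did not overlap between the Hampshire groups and 4.59% between the Pietrain groups. The share for ratios of other gene pairs was not determined. The ratio of PRKAG3 to PRKAG2, a pair added after the data were seen, overlapped in both breeds.

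**Figure D3:**
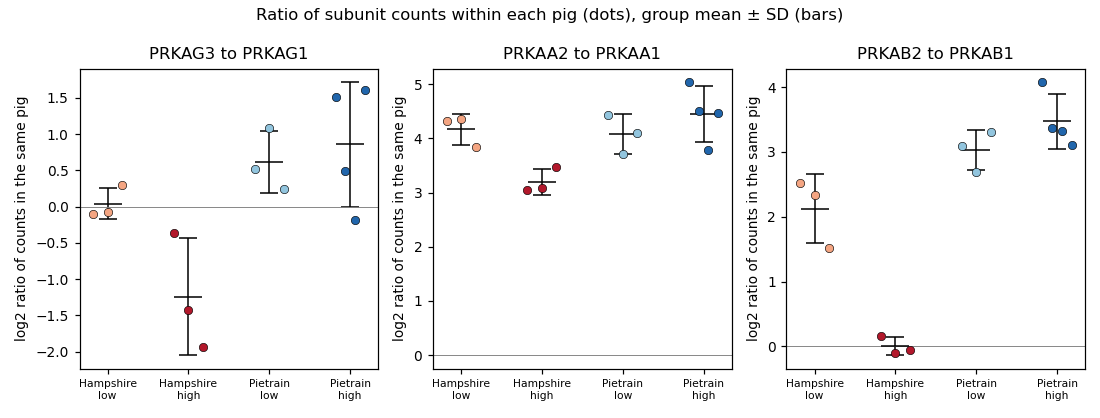
Log2 ratio of the counts of 2 subunit isoforms in the same pig, with 1 dot per pig and bars for the group mean ± SD. In each panel the Hampshire high pigs lie below all Hampshire low pigs, and the 2 Pietrain groups overlap.

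Between the breeds, 5 of the 9 identifiers were lower in Hampshire and none higher: PRKAB2, PRKAA2, PRKAG3 and both PRKAA1 identifiers. Of the 12831 genes tested, 26.9% were DEGs lower and 25.4% DEGs higher in Hampshire. The groups of 6 Hampshire and 7 Pietrain pigs did not overlap for 2 of the identifiers, PRKAA2 and PRKAB2, compared with 12.1% of the genes tested. PRKAB2 was 3.52-fold lower in Hampshire (log2 fold change -1.81 ± 0.17 SE, adjusted p = 9.65e-06, edgeR). PRKAA2 was 2.91-fold lower (log2 fold change -1.54 ± 0.13 SE, adjusted p = 6.33e-06, edgeR). PRKAG3 was 2.88-fold lower (log2 fold change -1.53 ± 0.28 SE, adjusted p = 0.000567, edgeR), although Pietrain high pig 6 lay within the Hampshire range. These 3 calls held with each pig left out in turn.

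PRKAA1 on chromosome 16 was 1.98-fold lower in Hampshire (log2 fold change -0.99 ± 0.20 SE, adjusted p = 0.00111, edgeR), its scaffold identifier had a log2 fold change of -1.54 ± 0.34 SE (adjusted p = 0.00191), and with both identifiers summed it was -1.08 ± 0.19 SE (adjusted p = 0.000508). PRKAG1 (log2 fold change -0.13 ± 0.13 SE), PRKAG2 (0.24 ± 0.25 SE) and STK11 (0.20 ± 0.16 SE) did not pass the test, with adjusted p-values of 0.414, 0.434 and 0.322 (edgeR). PRKAB1 had a log2 fold change of 0.34 ± 0.14 SE (adjusted p = 0.0516, edgeR), the nearest to the threshold of those not called, and it was a DEG without Hampshire low pig 2 (adjusted p = 0.0426), without Pietrain high pig 6 (0.0286) or with at least 10 counts in every pig (0.0421).

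The breed difference was also taken within each loin weight class. Among the low pigs, PRKAA1 on chromosome 16 (log2 fold change -1.20), PRKAA2 (-1.08) and PRKAB2 (-0.93) were lower in Hampshire, 3 of 9 identifiers beside 10.1% of genes lower and 7.84% higher. PRKAG3 had a log2 fold change of -1.09 ± 0.40 SE (adjusted p = 0.0678, edgeR) there, with every Hampshire pig below every Pietrain pig. The low pigs of the breeds also did not overlap for 42.8% of all genes tested. Among the high pigs, 5 identifiers were lower in Hampshire and PRKAB1 was higher, beside 24.2% of genes lower and 22.6% higher. PRKAB2 was then 6.47-fold lower, PRKAA2 4.01-fold lower and PRKAG3 3.89-fold lower, and PRKAB1 was 1.71-fold higher (log2 fold change 0.77 ± 0.19 SE, adjusted p = 0.00465, edgeR). The order of group levels was therefore Hampshire high below Hampshire low below both Pietrain groups for PRKAA2 and PRKAB2, and the 2 Pietrain groups did not differ beyond their spread. Pigs of the 2 breeds entered all of these contrasts, so they share samples with the comparisons by loin weight.

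Muscle samples are mixtures, and fewer cells of a type and less RNA per cell cannot be told apart here. Markers of slow (type I) fibres were DEGs higher in Hampshire high for 5 of 5 measured genes, beside 12.0% of all genes tested. They were led by TNNC1 (log2 fold change 2.06), TNNI1 (2.22) and TNNT1 (2.13), which encode slow troponins. Their summed level ranged from 2834 to 6607 CPM in Hampshire low and from 11700 to 17800 CPM in Hampshire high. Of 6 fast fibre markers only MYH1, a fast myosin heavy chain, was a DEG (log2 fold change -1.25, adjusted p = 0.0390, edgeR). It was lower, beside 14.6% of all genes tested. The summed level of the fast fibre markers was 82180 to 132733 CPM in Hampshire low and 82209 to 84504 CPM in Hampshire high. In Pietrain the slow fibre sum varied from 27.7 CPM in low pig 5 to 11159 CPM in high pig 2. The part of fibre type in the subunit differences was not tested.

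PRKAG3 was highest, at 90.4 CPM, in Pietrain low pig 5, which had the lowest slow fibre sum. Pietrain high pig 6, with the next lowest sum of 747 CPM, had the lowest PRKAG3 level of the Pietrain pigs.

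**Figure D4:**
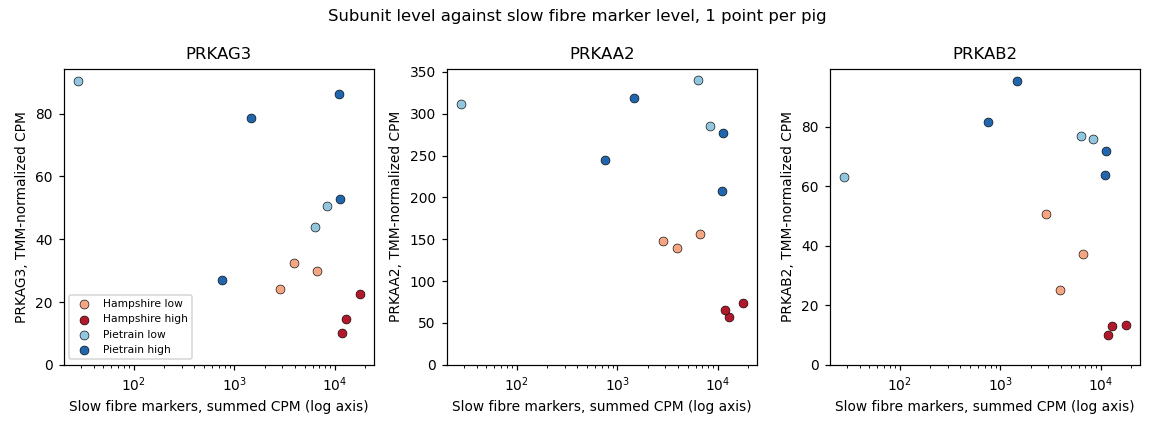
Level of PRKAG3, PRKAA2 and PRKAB2 (TMM-normalized CPM) against the summed level of 5 slow fibre markers (CPM, log axis), with 1 point per pig coloured by group. The Hampshire high pigs lie at the right and lowest in each panel.

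Other markers were counted as well. Macrophage markers were DEGs higher in Hampshire than in Pietrain for 9 of 9 genes, beside 25.4% of all genes tested. Their summed levels were 53.9 to 231.5 CPM in the 6 Hampshire pigs and 19.5 to 61.7 CPM in the 7 Pietrain pigs. Of the 9, 3 were higher in Hampshire high than in Hampshire low (TYROBP, AIF1 and CD14), beside 12.0% of all genes tested. Matrix fibroblast markers had 3 of 6 DEGs higher in Hampshire high (summed 739 to 1587 CPM in low and 1878 to 4872 CPM in high), endothelial markers 1 of 6, adipocyte markers 1 of the 2 measured and muscle fibre markers 1 of 3 (the creatine kinase gene CKM). The endothelial count was near the 12.0% of all genes tested that were higher there. No measured marker of these lists was at 0 in a whole group, and their part in the results was not tested. Fold changes also followed gene length: in Hampshire the median log2 fold change was 0.42 for the shortest 25% of genes and -0.33 for the longest 25%. Between the breeds these medians were 0.39 and -0.41, and for the difference in effect 0.37 and -0.28. In Pietrain they were 0.04 and -0.04. After correction for length PRKAA2 and PRKAB2 remained DEGs in Hampshire (log2 fold changes -1.09 and -1.77), as did PRKAG3 (-1.17) when its length was taken from RefSeq. With the authors' lengths, 4 of 8 identifiers were DEGs lower between the breeds, and 2 lower and 1 higher for the difference in effect.

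Among kinases and adaptors that act upstream of AMPK, 1 of 7 tested identifiers was higher and 2 were lower in Hampshire high, with a median log2 fold change of -0.62. With 12.0% higher and 14.6% lower over all genes tested, these counts were near the background. CAMKK2, the calcium-dependent kinase that phosphorylates AMPK, was higher (log2 fold change 1.33 ± 0.42 SE, adjusted p = 0.0467, edgeR). Its level was 3.31 to 7.50 CPM in the low and 7.56 to 22.0 CPM in the high group. CAB39, which encodes the MO25 partner of LKB1, was lower (log2 fold change -0.72 ± 0.20 SE, adjusted p = 0.0299, edgeR), as was 1 of the identifiers of MAP3K7, the TAK1 kinase (-1.23 ± 0.28 SE, adjusted p = 0.0152). Between the breeds 3 of the 7 identifiers, CAB39 and both of MAP3K7, were lower in Hampshire and none was higher. Over all genes tested, 26.9% were lower and 25.4% higher.

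Of 6 genes of energy sensing and hormone input, LEPR, the leptin receptor, was higher in Hampshire high (log2 fold change 2.30 ± 0.46 SE), from 0.437 to 0.612 CPM in the low group to 1.34 to 3.91 CPM in the high group. FNIP1, the folliculin partner that binds AMPK, was lower (-0.91 ± 0.16 SE). SESN1, a sestrin, was lower in Hampshire than in Pietrain (-0.82 ± 0.17 SE), as was FNIP1. Of 8 AMPK-related kinases, SNRK and MARK2 were lower in Hampshire high (log2 fold changes -0.83 and -0.91) and none was higher. Over all genes tested, 14.6% were lower and 12.0% higher there, so the counts in these lists were near the background. Between the breeds 1 of the 8, SIK3, was higher in Hampshire and 3 were lower, among them SNRK and NUAK1. The shares over all genes tested were 25.4% higher and 26.9% lower.

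Among 22 substrates and outputs of AMPK, 8 were lower and 1 was higher in Hampshire high, beside 14.6% lower and 12.0% higher over all genes tested, and the median log2 fold change was -0.52. FOXO3, a transcription factor of the atrophy and stress response, had 9.77 to 11.4 CPM in the low and 2.82 to 3.75 CPM in the high group (log2 fold change -1.70 ± 0.21 SE, adjusted p = 0.00237, edgeR). TBC1D4, the Rab GTPase-activating protein that controls glucose transporter traffic, had 9.43 to 13.3 CPM in the low and 3.18 to 5.38 CPM in the high group (-1.42 ± 0.25 SE). LIPE, the hormone-sensitive lipase, was the gene that rose, from 6.67 to 10.8 CPM in the low to 19.4 to 46.9 CPM in the high group (1.82 ± 0.33 SE). For FOXO3 and TBC1D4 the loin weight effect also differed between the breeds, by log2 differences of -2.55 and -1.56 (adjusted p = 0.00993 and 0.0166, edgeR).

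Between the breeds, 8 of the 22 outputs were higher and 4 lower in Hampshire, beside 25.4% higher and 26.9% lower over all genes tested. PPARGC1A, the PGC-1α coactivator of mitochondrial genes, was the most different (log2 fold change -4.94 ± 0.59 SE, adjusted p = 3.44e-05, edgeR). Its level was 1.98 to 11.8 CPM across the Hampshire pigs and 171 to 201 CPM in Pietrain low. In Pietrain high it ranged from 5.55 to 183 CPM, so that group reached into the Hampshire range.

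**Figure D5:**
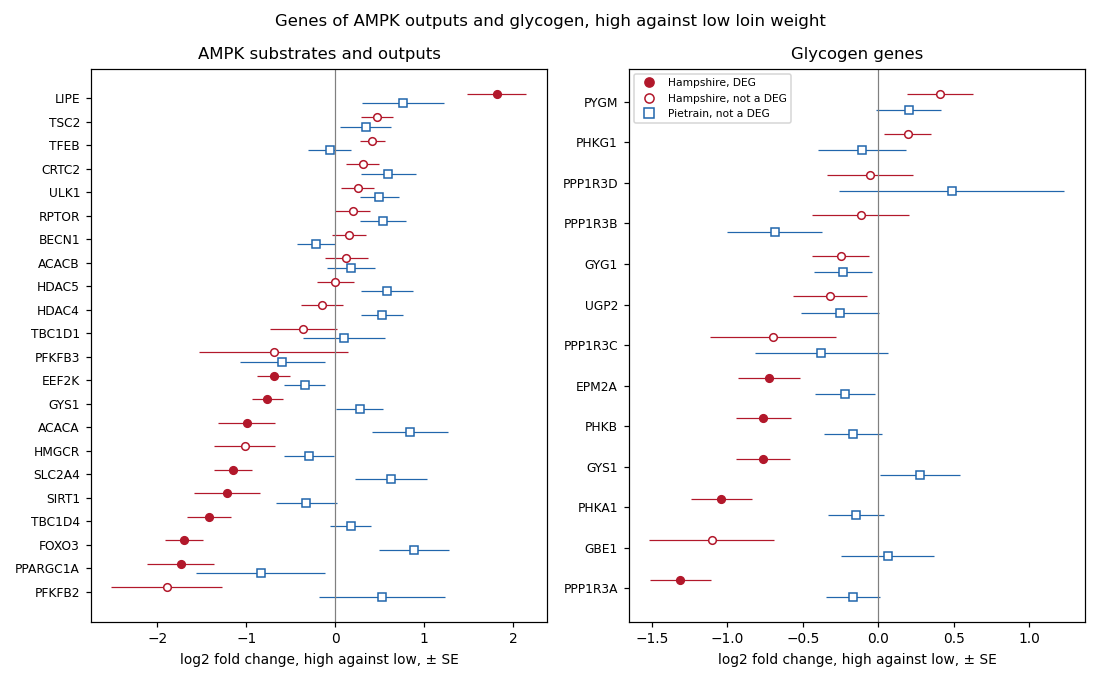
Log2 fold change ± SE for high against low loin weight of AMPK substrates and outputs (left) and 13 of the 14 glycogen genes (right), with circles for Hampshire, squares for Pietrain and filled symbols for DEGs. The filled circles lie below 0 except LIPE, and no square is filled.

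Glycogen is bound by the β subunits of AMPK, and its genes were listed for that reason. Of 14 glycogen genes, 6 were lower in Hampshire high and none was higher, beside 14.6% lower and 12.0% higher over all genes tested, with a median log2 fold change of -0.71. A gene on both lists is counted among these 6 and among the lower AMPK outputs, and again in both lists between the breeds. PPP1R3A, the muscle subunit that targets protein phosphatase 1 to glycogen, had 493 to 764 CPM in Hampshire low and 232 to 261 CPM in Hampshire high (log2 fold change -1.31 ± 0.20 SE, adjusted p = 0.00429, edgeR). PHKA1, a regulatory subunit of muscle phosphorylase kinase, was lower by a log2 fold change of -1.04 ± 0.20 SE. Both were also lower in Hampshire than in Pietrain, at log2 fold changes of -1.16 and -1.17, and the loin weight effect on PPP1R3A differed between the breeds (log2 difference -1.11, adjusted p = 0.0249, edgeR). In Pietrain none of the 14 was a DEG, and PPP1R3A had 855 to 1038 CPM in the low and 722 to 960 CPM in the high group. Between the breeds 4 of the 14 were higher and 6 lower in Hampshire, beside 25.4% and 26.9% over all genes tested.

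The genes whose level followed PRKAG3 most closely from pig to pig within groups were sought among 9814 genes with a symbol, over 13 pigs, as the Pearson correlation of log2 CPM centred on the group means. They were GPC1 (r = 0.93), VPS37C (0.90), GPATCH1 (0.90), FBXO34 (0.90) and GOLGA3 (0.89). These correlations are a description of the 13 libraries. The other AMPK subunits were not close to PRKAG3 by this measure: the correlations were 0.10 for PRKAA2, -0.17 for PRKAB2 and -0.43 for PRKAG2, and STK11 had 0.56. Of the 5, GOLGA3 and FBXO34 were also lower in Hampshire high (log2 fold changes -1.55 and -0.80), beside 14.6% of all genes tested. GPC1, VPS37C and GPATCH1 did not pass the test there (log2 fold changes -0.04, 0.01 and 0.13). In the gene order of RefSeq the nearest named protein-coding genes on either side of PRKAG3 are CYP27A1 and WNT6. WNT6 was not matched to an identifier in the counts, so its level was not examined. CYP27A1, the sterol 27-hydroxylase, had 0.512 to 3.50 CPM over all pigs and a log2 fold change of 0.06 ± 0.60 SE in Hampshire.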

How the data were processed

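The authors sequenced RNA of longissimus lumborum from 13 pigs and deposited raw, unnormalized counts, 1 table per breed. The build was Sscrofa10.2, and the submitters' processing notes name FastQC, STAR, RSEM and DESeq2. The annotation release is not given in the sources used here. The authors' DESeq2 tables, with fold changes and p-values per breed, were used only for gene coordinates and gene symbols.

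Groups followed the sample labels, with all 4 Pietrain high pigs, although the paper lists fewer animals in that group. Pigs of 1 group differed by more than counting noise in all 15 pairs. Counts were analysed in R 4.3.3 with edgeR 4.0.16 (TMM, filterByExpr by group, glmQLFit and glmQLFTest). Each breed was fitted alone for high against low loin weight. The breeds, and the difference in loin weight effect, were fitted over all 13 pigs. The SE was derived from the F statistic and the estimated log2 fold change. Correlations used log2 CPM with a pseudocount of 0.5.

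The genes and lists were chosen with earlier results of these data known. The text names the 8 symbols, at most 3 DEGs per list and comparison (those of smallest adjusted p-value), and the 5 genes most like PRKAG3. PRKAG3 had no coordinates in the authors' tables, so its neighbours, and its length in 1 alternative, came from RefSeq Sscrofa11.1. Of 134 list symbols 100 matched, and 13168 of 25322 identifiers had a symbol. Alternatives were DESeq2 1.42.0, its size factors, 2 filters, gene length corrections (authors' lengths, and after seeing the data RefSeq lengths where these were missing), PRKAA1 summed and the replicate number as a block (both also added then), 1 fit over all pigs, each loin weight class alone, no fold threshold and leaving out each pig. One glycogen gene is counted but not reported here by name. Scripts were tested on simulated counts. Figures used matplotlib 3.10.9.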

Additional observations from a re-analysis of the deposited data

Results flagged for a closer look

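The loin weight effect differed between the breeds for 2 AMPK subunit genes, as tested by the interaction of breed and loin weight over all 13 pigs (edgeR). For PRKAB2 the log2 difference, Hampshire minus Pietrain, was -1.76 (adjusted p = 0.00970), and for PRKAA2 it was -0.93 (adjusted p = 0.0412). The PRKAA2 call was lost in 10 of the 13 fits that left out 1 pig (adjusted p up to 0.0759), without the filter on low counts (0.0501) and with RefSeq lengths added to the length correction (0.0559). No level of the 9 identifiers stood apart from the other pigs in the Pietrain high group, the only group with the 4 pigs that the outlier test needs.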

How the results depend on the processing

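PRKAA2 and PRKAB2 stayed lower in Hampshire high and in Hampshire, and past the threshold, under every alternative run. Among the 9 identifiers, 2 to 4 were DEGs lower in Hampshire high, 3 to 5 lower between the breeds and 0 to 2 lower for the difference in effect (0 with the replicate block only), and none was a DEG in Pietrain. The cause of the changes below was not tested. DESeq2 called 1 gene in Pietrain. For the difference in effect, edgeR called 757 genes, DESeq2 1224, and edgeR 480 with the gene length correction and 422 with RefSeq lengths added. The low pigs alone gave 2300 DEGs between breeds (6705 with all pigs). Leaving out 1 pig gave 1224 to 3049 DEGs in Hampshire (lowest without low pig 3, and 1760 and 2091 without high pigs 10 and 9), 0 in Pietrain and 379 to 1052 for the difference in effect (lowest without Hampshire low pig 3, and 424 to 494 without Hampshire low pig 2, Hampshire high pig 9 or 10, or Pietrain low pig 5 or 8).

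Signs changed for small log2 fold changes that had not passed the test. In Pietrain, PRKAG2 was 0.0069 with at least 10 counts in every pig, STK11 was -0.026 and -0.031 with the length corrections and -0.0023 in 1 fit over all pigs, and PRKAG3 was -0.035 with RefSeq lengths and -0.0096 in 1 fit. Between breeds, PRKAG1 was 0.25 and 0.20 and STK11 -0.074 and -0.099 with the length corrections, PRKAB1 was -0.084 in the low pigs alone, and PRKAG1 was 0.20 and PRKAG2 -0.16 in the high pigs alone. With each Pietrain pig left out, log2 fold changes ranged from -0.19 to 0.39 for PRKAG3, -0.31 to 0.27 for PRKAG2, -0.10 to 0.32 for PRKAA1 on GL896571.2 and -0.11 to 0.24 for STK11. The log2 difference of the PRKAG3 to PRKAG1 ratio then ranged from -0.0080 to 0.59 in Pietrain, and that of PRKAG3 to PRKAG2 from -0.55 to 0.59 in Pietrain and -0.57 to 0.10 in Hampshire.

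Replicate numbers name single pigs. No paired analysis was possible within a breed, because the high and low groups share no number. Across the breeds 4 numbers recur, and the deviations from the group means correlated at 0.25, 0.10, -0.05 and -0.06 for numbers 1, 2, 3 and 8, so the numbers were not taken to pair the pigs. With the replicate block, chosen after seeing the data and leaving 1 residual degree of freedom, there were 4342 DEGs between breeds and 16 for the difference in effect. The 5 identifiers called between breeds kept their calls, PRKAA2 and PRKAB2 were not called for the difference in effect (adjusted p = 0.669 and 0.927), and signs changed for PRKAG2 between breeds (-0.25) and PRKAA1 for the difference in effect (-0.80). The depth limits PRKAA1 on the scaffold most, with 5 to 87 counts per pig.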
